A study of Mus musculus with 21 samples.

Results

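Penk, Pga5, Ccdc177, Trim67, Sfn and Tbx2 are 6 of the 33861 mouse genes in a raw count matrix of cultured pluripotent cells and single epiblasts. They were picked by symbol because their counts had been seen to differ strongly between epiblast stem cells kept in a medium called AF and in one called AFX. That difference is therefore how they were found, and it is described here without a test. The levels in formative stem cell lines and in epiblasts played no part in the choice, so those comparisons were tested. All 6 symbols matched a row. In the fits of cultured cells all 6 passed the filter on low counts, and in the fit of the epiblasts 5 did, with Tbx2 left out. A gene that is abundant only in AF passes the cultured filter through that group alone.

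The matrix covers 21 RNA sequencing samples: 12 of cultured cells, of 1000 cells each, and 9 epiblasts collected one embryo at a time. AF and AFX cells are labelled as EpiSCs (epiblast stem cells), carry the name E14 in their descriptions, and were sampled at passages 14, 15 and 16 in each medium. The formative stem (FS) cells, kept in a medium named A3XR, comprised line FS1 at passages 10, 11 and 18 and line FS2 at passages 12, 13 and 16. The epiblasts came in sets of 3 from E5.0, E5.5 and E6.0, named for the embryonic day in their titles, though another label field gives the last stage as 6.5. No allele, transgene or drug is named in the labels of any group, and what the media contain is not spelled out there. AF and AFX each stand for cells of a single named background sampled over consecutive passages, and the FS group for 2 lines, so p-values measure the spread between passages or embryos and not between independent derivations.

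Epiblast stem cells resemble the epiblast after implantation, on its way to gastrulation, while formative stem cells are described as an earlier state in which the epiblast gains competence to form germ layers and germ cells. The genes examined belong to unrelated families. Penk encodes proenkephalin, the precursor of the enkephalin opioid peptides, which prohormone convertases and carboxypeptidase E cut from it. Pga5 encodes a pepsinogen, the inactive form of a stomach aspartic protease. Trim67 encodes a ubiquitin ligase of the class I tripartite motif family, known from neurons, where it binds the netrin receptor DCC. Sfn encodes 14-3-3 sigma, the epithelial member of the 14-3-3 adaptor proteins and a target of p53. Tbx2 encodes a T-box transcription factor that mainly represses its targets. Ccdc177 encodes a coiled-coil protein whose function is little known.

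In the GRCm38 annotation the genes lie on 5 chromosomes. Penk spans chr4:4133531-4138819 on the minus strand and Sfn, a gene of a single exon, chr4:133600556-133602168 on the same strand. Pga5 lies at chr19:10668956-10678071 (minus), Ccdc177 at chr12:80754043-80760687 (minus), Trim67 at chr8:124793092-124834713 (plus) and Tbx2 at chr11:85832551-85841948 (plus). RefSeq promoter sequence (GRCm38.p6) was matched for 2 of the 6, Trim67 and Sfn, and is shown because both genes were high in AF and low in AFX. Each line gives the 250 bases upstream of the RefSeq start, 5′ to 3′ on the gene's own strand, with capitals marking motif matches on either strand: GGGCGG, the GC box, in Trim67 and CCAAT in Sfn. The windows are chr8:124792769-124793018 for Trim67 and chr4:133602169-133602418 for Sfn.
Trim67: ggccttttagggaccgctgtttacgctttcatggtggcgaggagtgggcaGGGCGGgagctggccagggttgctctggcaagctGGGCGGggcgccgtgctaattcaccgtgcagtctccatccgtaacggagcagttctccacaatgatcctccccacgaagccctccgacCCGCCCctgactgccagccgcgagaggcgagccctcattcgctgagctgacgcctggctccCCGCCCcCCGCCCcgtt
Sfn: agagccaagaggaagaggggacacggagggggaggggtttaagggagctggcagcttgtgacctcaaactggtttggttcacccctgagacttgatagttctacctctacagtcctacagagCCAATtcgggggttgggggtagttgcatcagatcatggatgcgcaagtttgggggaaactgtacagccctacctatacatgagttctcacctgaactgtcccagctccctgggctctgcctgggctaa
The 2 windows differed in composition. The Trim67 window held 21 CpG dinucleotides at 66.8% G and C, and the Sfn window 3 CpG at 54.4%, against a median of 6 CpG over all 32851 windows. GGGCGG occurred 5 times in the Trim67 window, 3 of them on the minus strand, and CCAAT once in the Sfn window. Over all windows 32.7% held GGGCGG and 33.8% held CCAAT on either strand. Neither window held TATAAA (12.4% of all windows) or CTTTGAT, the core recognised by TCF and LEF factors (3.21%). No 2 matches overlapped, and a match describes the sequence only.

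Total counts ran from 5827093 to 15916800 per sample, and levels are given as CPM (counts scaled to a common library size) after TMM scaling over all 21 samples. On that scale 3 counts, taken as the floor, correspond to 0.171 to 0.589 CPM. No fold is given where both groups are at or under the floor, and where 1 group held 1 to 3 counts in all, the ratio of summed counts is given with its counting interval. The 5 most abundant loci, ribosomal RNA-like or mitochondrial, took 19.9 to 31.6% of the counts. All 8 genes of a pluripotent epiblast list, among them Pou5f1 and Sox2, were detected in every sample. These are bulk measurements, in which fewer cells of a type and less RNA per cell cannot be told apart.

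Between the media, 5 of the 6 genes were high in AF and low in AFX, and Ccdc177 was the reverse. For each of the 6, every AF sample lay on one side of every AFX sample. The fit over all genes called 8.73% of 16052 genes different between AFX and AF (adjusted p under 0.05 by edgeR's quasi-likelihood test, with Benjamini-Hochberg adjustment over all genes), of which 691 were higher in AFX (4.30%) and 710 lower (4.42%). All 6 genes were among those called, as their choice requires, and nothing is read from that.

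**Figure D1:**
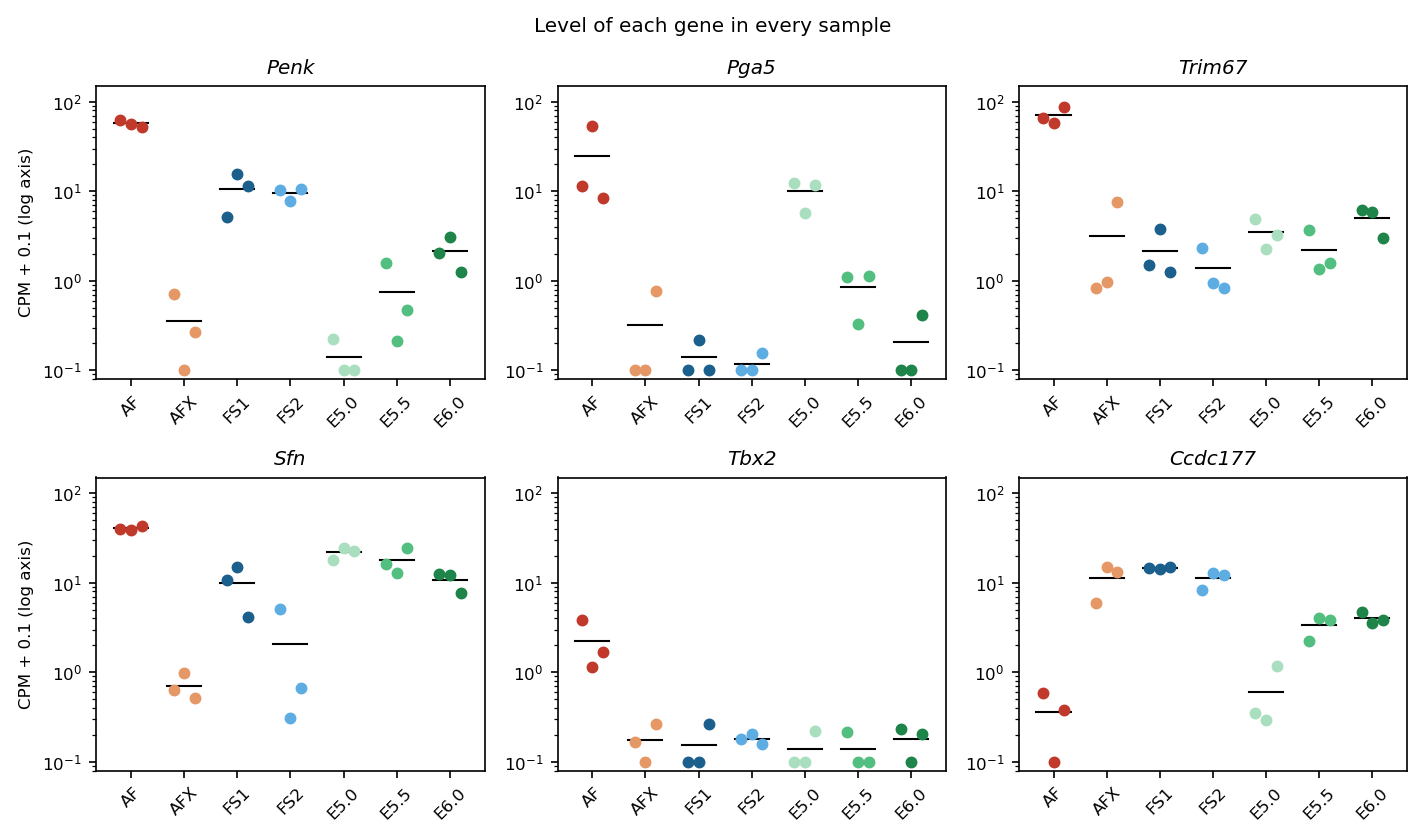
Level of each of the 6 genes in every sample, as CPM plus a small constant that keeps samples at 0 visible, on a log axis, with 1 panel per gene and the 7 groups side by side; points are samples and bars group means. Penk, Pga5, Trim67, Sfn and Tbx2 are highest in AF, while Ccdc177 is lowest there and reaches 5.84 to 15.1 CPM in AFX and both FS lines.

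Penk was at 62.2, 56.5 and 52.6 CPM in AF at passages 14, 15 and 16, and at 0.604, 0 and 0.166 CPM in AFX at the same passages. The AF passages lay close together (57.1 ± 4.80 CPM, SD, n = 3), and the 3 AFX libraries together held 11 Penk counts against 1714 in AF. The fitted log2 difference, AFX minus AF, was -7.49, and -9.03 without AFX passage 14, a value that then rests on 2 counts in AFX. The nearest gene start to Penk, 498 bases away, belongs to A830012C17Rik, an antisense transcript that overlaps Penk, averaged 1.63 CPM in AF and had no count in AFX. Whether counting used strand is not given in the sources used here, so reads of the pair cannot be told apart.

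Pga5 was the least even of the genes across AF passages, at 11.3, 54.0 and 8.35 CPM. In AFX it was listed at 0 at passages 14 and 15 and at 0.665 CPM, 8 counts, at passage 16. The groups did not overlap, but the AF mean of 24.6 ± 25.5 CPM (SD, n = 3) rested on passage 15. The fitted log2 difference was -6.68, and it was -5.36 without AF passage 15, -5.99 without AFX passage 14 and -11.13 without AFX passage 16, where both remaining AFX libraries were at 0 and the fitted value is no bound.

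Ccdc177 moved the other way, with 0.493, 0 and 0.278 CPM in AF and 5.84, 14.7 and 13.1 CPM in AFX. The 3 AF libraries together held 7 counts of it and the AFX libraries 362. Passage 14 was the lowest of the AFX samples. The fitted log2 difference was 5.5, with 4.85 without AF passage 15. Without AF passage 14 the fit gave 6.23, against an AF group that then held 3 counts, so that value depends on the fit's prior count.

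Trim67 stood at 66.6, 58.4 and 87.0 CPM in AF and at 0.738, 0.875 and 7.56 CPM in AFX. The AFX sample of passage 16 was far above the other two, yet below every AF sample. The fitted log2 difference was -4.50, and -6.46 without that sample.

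Sfn had the most even levels in both media, at 39.7, 39.0 and 43.3 CPM in AF (40.7 ± 2.31, SD, n = 3) and 0.537, 0.875 and 0.416 CPM in AFX. The fitted log2 difference was -6.11. Its range over the sample-by-sample omissions and other settings tried, -6.38 to -5.91, was the narrowest of the 6 genes.

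Tbx2 was low even where it was highest, with 3.70, 1.06 and 1.58 CPM in AF, from 30, 12 and 17 counts. The AFX libraries held 3 counts in all. The ratio of summed counts per library size, AF to AFX, was 22.7, with a 95% counting interval of 7.40 to 113 that covers counting error only. The fitted log2 difference was -4.45, with -3.81 without AF passage 14 and -5.29 without AFX passage 16. These values rest on 3 counts or fewer in AFX and depend on the fit's prior count. In all 15 samples that were neither AF nor AFX, Tbx2 had at most 2 counts.

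The FS lines placed the genes differently relative to the 2 media, and the levels are set side by side with no test because AF and AFX chose the genes. Penk was intermediate in FS cells, at 5.06, 15.4 and 11.3 CPM in FS1 and 10.2, 7.70 and 10.6 CPM in FS2, below all AF and above all AFX samples. Ccdc177 in FS cells was at the AFX level, with 14.4, 14.2 and 15.1 CPM in FS1 and 8.28, 12.8 and 12.2 CPM in FS2, and the FS and AFX ranges overlapped. Both lines were above every AF sample.

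Trim67 was low in FS cells as in AFX, at 1.39, 3.66 and 1.14 CPM in FS1 and 2.25, 0.844 and 0.739 CPM in FS2. Pga5 had 2 counts in all over the 6 FS samples and Tbx2 had 5, so both were at the floor there. Sfn was at 10.6, 15 and 4.07 CPM in FS1, all above AFX, and at 5.06, 0.211 and 0.569 CPM in FS2, where passages 13 and 16 were within or below the AFX range and passage 12 was within the FS1 range.

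Pga5 and Tbx2 could not be compared between the FS lines. None of the other 4 genes was called different by edgeR, where 3.85% of all genes were (2.65% higher in FS2 and 1.20% lower). At an unadjusted p under 0.05 there was 1, Sfn, and the Wald test of DESeq2 called none. Sfn was 9.90 ± 5.5 CPM in FS1 and 1.95 ± 2.70 in FS2 (SD, n = 3 each), a log2 difference, FS2 minus FS1, of -2.34 ± 0.75 (SE, edgeR adjusted p = 0.129). Without FS2 passage 12 it was -4.49 (edgeR adjusted p = 0.000948), so that 1 library set the side of the threshold. Ccdc177 was lower in every FS2 sample than in every FS1 sample, but by only -0.41 ± 0.35 (edgeR adjusted p = 0.609).
Penk differed by -0.16 ± 0.35 (edgeR adjusted p = 0.872) and Trim67 by -0.66 ± 0.93 (edgeR adjusted p = 0.781), both smaller than their standard error, and without FS1 passage 11 the 2 values were 0.21 and 0.0061.

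In the epiblast, 4 of the 5 genes measurable there changed between E5.0 and E6.0, by edgeR with adjusted p under 0.05, where 21.8% of all genes did. Pga5 and Sfn fell, and Penk and Ccdc177 rose. Trim67 did not pass the test. By direction, 10.2% of all genes were called higher at E6.0 and 11.6% lower.

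**Figure D2:**
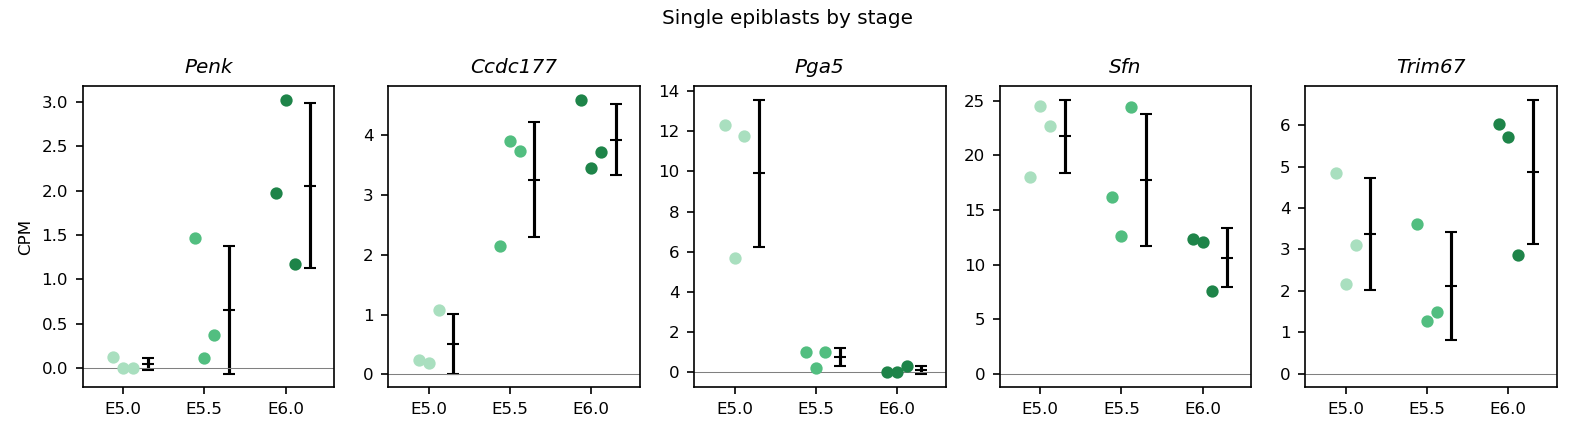
Levels in single epiblasts by stage for Penk, Pga5, Ccdc177, Trim67 and Sfn, in CPM on linear axes; points are embryos and the marks with bars are means ± SD of 3 embryos. Pga5 falls from 5.69 to 12.3 CPM at E5.0 to at most 0.319 CPM at E6.0, while every E6.0 embryo is above every E5.0 embryo for Penk and Ccdc177.

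Pga5, the pepsinogen gene, was at 12.3, 5.69 and 11.8 CPM in the 3 E5.0 epiblasts, at 1.02, 0.229 and 1.03 CPM at E5.5, and at 0, 0 and 0.319 CPM at E6.0. No E5.0 embryo overlapped a later one. The fall from E5.0 to E5.5 was -3.69 ± 0.73 on the log2 scale (SE, edgeR adjusted p = 0.0103), where 6.82% of all genes were called, 3.75% lower and 3.07% higher. Against E6.0, whose libraries held 3 counts, all in embryo 3, the fit gave an adjusted p of 0.000265 by edgeR, and the ratio of summed counts per library size was 100 (95% counting interval 33.8 to 489). The fitted log2 difference was -6.39, and -9.43 to -5.74 with 1 embryo left out, so its size depends on few counts. Between E5.5 and E6.0 the call was not made (edgeR adjusted p = 0.147).

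Visceral endoderm markers, 11 genes of the tissue that encloses the epiblast, fell over the same stages. Their summed level was 252 to 800 CPM at E5.0, 27.7 to 61.6 CPM at E5.5 and 7.27 to 9.68 CPM at E6.0, and 7 of the 8 tested were called lower at E6.0 than at E5.0 (median log2 difference -4.99, against -0.02 over all genes). The defining markers Ttr and Apoa1 stood at 4.44 to 10.8 CPM and 18.2 to 46.2 CPM at E5.0. Among the E5.0 embryos the order was not shared: embryo 2 had the highest marker sum, 800 CPM, and the lowest Pga5, 5.69 CPM. In AF, where Pga5 was also high, the markers were unevenly present: Gata4, Gata6 and Sox17 averaged 10.1, 18 and 31.1 CPM, Ttr was at 0 to 0.123 CPM, and Afp had no count in any cultured sample. The part of visceral endoderm RNA in the fall of Pga5 was not tested.

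Sfn was abundant throughout the epiblast stages and declined, from 18, 24.5 and 22.7 CPM at E5.0 through 16.2, 12.6 and 24.4 CPM at E5.5 to 12.3, 12 and 7.56 CPM at E6.0. Every E6.0 embryo was below every E5.0 and E5.5 embryo. The change from E5.0 to E6.0 was -1.04 ± 0.29 on the log2 scale (SE, edgeR adjusted p = 0.0202). It missed the threshold without E6.0 embryo 2 (adjusted p = 0.0516 by edgeR) or 3 (-0.83, 0.104). Neither single step passed the test: -0.30 ± 0.29 to E5.5 (edgeR adjusted p = 0.584) and -0.74 ± 0.29 from there (edgeR adjusted p = 0.177).

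Penk was nearly absent at E5.0, with 0.124, 0 and 0 CPM from 1 count in all. It reached 1.47, 0.115 and 0.373 CPM at E5.5 and 1.97, 3.03 and 1.17 CPM at E6.0. The E6.0 embryos were all above the E5.0 embryos, and the E5.5 embryos overlapped both. The ratio of summed counts per library size, E6.0 to E5.0, was 45.9 (95% counting interval 7.93 to 1841, for 61 counts against 1), with an edgeR adjusted p of 0.0157. Without E6.0 embryo 2 that adjusted p was 0.0835 by edgeR.

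Ccdc177 rose from 0.248, 0.196 and 1.08 CPM at E5.0 to 2.15, 3.90 and 3.73 CPM at E5.5 and 4.59, 3.46 and 3.72 CPM at E6.0. The step lay between E5.0 and E5.5, where the groups did not overlap. It amounted to 2.57 ± 0.69 on the log2 scale (SE, edgeR adjusted p = 0.0388), and 2.83 ± 0.69 to E6.0 (edgeR adjusted p = 0.00978). From E5.5 to E6.0 it differed by 0.26 ± 0.59 (edgeR adjusted p = 0.872). The call at E5.5 was lost in 5 of the 6 fits that left out an embryo of those stages (adjusted p 0.0579 to 0.118 by edgeR), and the one at E6.0 was kept in every alternative run. Without E5.0 embryo 4, the highest of its stage, the fitted values were 3.76 and 4.03, against an E5.0 group that then held 3 counts, and depend on the prior count.

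Trim67 varied within stages as much as between them, with 4.84, 2.16 and 3.12 CPM at E5.0, 3.61, 1.26 and 1.49 CPM at E5.5 and 6.04, 5.71 and 2.87 CPM at E6.0. All stages overlapped. The log2 difference between E6.0 and E5.0 was 0.50 ± 0.55 (SE, edgeR adjusted p = 0.568). Between E6.0 and E5.5, where 4.43% of all genes were called, edgeR called none of the 5 genes, though 2, Pga5 and Sfn, had an unadjusted p under 0.05, and DESeq2 called none.

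Against the mean of the 3 epiblast stages, FS cells had more Penk and Ccdc177 and less Pga5 and Sfn. These 4 of the 6 genes were called by edgeR, in a comparison that called 57.0% of all genes (32.1% higher and 24.9% lower). The share is near the background and nothing is read from it, since Tbx2 was at the floor in both groups and passed the filter through AF alone. Penk was 10.04 ± 3.48 CPM in FS cells (SD, n = 6) and 0.916 ± 1.07 CPM in epiblasts (SD, n = 9), a log2 difference of 4.54 ± 0.41 (SE, edgeR adjusted p = 8.48e-09). The fit averages the stages on the log scale, and E5.0 held 1 Penk count in all, so the fitted value is above that of the 2 means and depends on the prior count. It was 5.26 without E5.0 embryo 1, which leaves that stage with no count. Ccdc177 was 12.8 ± 2.46 and 2.56 ± 1.69 CPM, a log2 difference of 2.73 ± 0.30 (SE, edgeR adjusted p = 9.05e-08). For both genes all 6 FS samples were above all 9 epiblasts.

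Sfn was 5.92 ± 5.83 CPM in FS cells and 16.7 ± 6.12 CPM in epiblasts, a log2 difference of -1.47 ± 0.54 (SE, edgeR adjusted p = 0.0282), with overlapping ranges. With FS1 alone as the FS group it was -0.70 (edgeR adjusted p = 0.052), and with FS2 alone -3.03 (edgeR adjusted p = 0.000328). The Sfn call was also lost with no filter on low counts, and without FS1 passage 18, FS2 passage 12 or E5.5 embryo 3. Pga5 had 251 counts over the epiblasts and 2 over the FS samples, a ratio of 113 per library size (95% counting interval 30.9 to 935, edgeR adjusted p = 0.00294). That call rested on the stages unequally, since all E5.0 and E5.5 embryos were above all FS samples while the E6.0 embryos overlapped them, and without E6.0 embryo 3, the only one of its stage with counts, the adjusted p by edgeR was 0.998. Trim67 was 1.67 ± 1.11 and 3.46 ± 1.75 CPM, a log2 difference of -1.02 ± 0.49 (SE, edgeR adjusted p = 0.0879), and -1.37 without FS1 passage 11 (edgeR adjusted p = 0.0286). Tbx2 was at the floor in both.

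Cell type marker lists are counted beside the 57.0% of all genes called in the same comparison, 32.1% higher and 24.9% lower. Of 13 simple epithelium genes edgeR called 9 lower and 1 higher (median log2 difference -1.85, against 0.09 over all genes). Their summed level was 460 to 856 CPM in FS cells and 1350 to 1576 CPM in epiblasts. Of 10 visceral endoderm genes 8 were called lower and 1 higher, with a median of -4.59, or -3.82 with the 3 genes that had no count in FS cells taken at the floor. That list summed to 2.33 to 3.90 CPM in FS cells. Of 9 neural genes 6 were called higher in FS cells (median 2.07, beside 32.1% of all genes called higher), and of 8 feeder fibroblast genes 4 higher and 2 lower. Of 12 p53 targets, the class to which Sfn is known to belong, 9 were called higher and 2 lower (median 1.65). The part of such cells in the levels of the genes in FS cells was not tested.

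**Figure D3:**
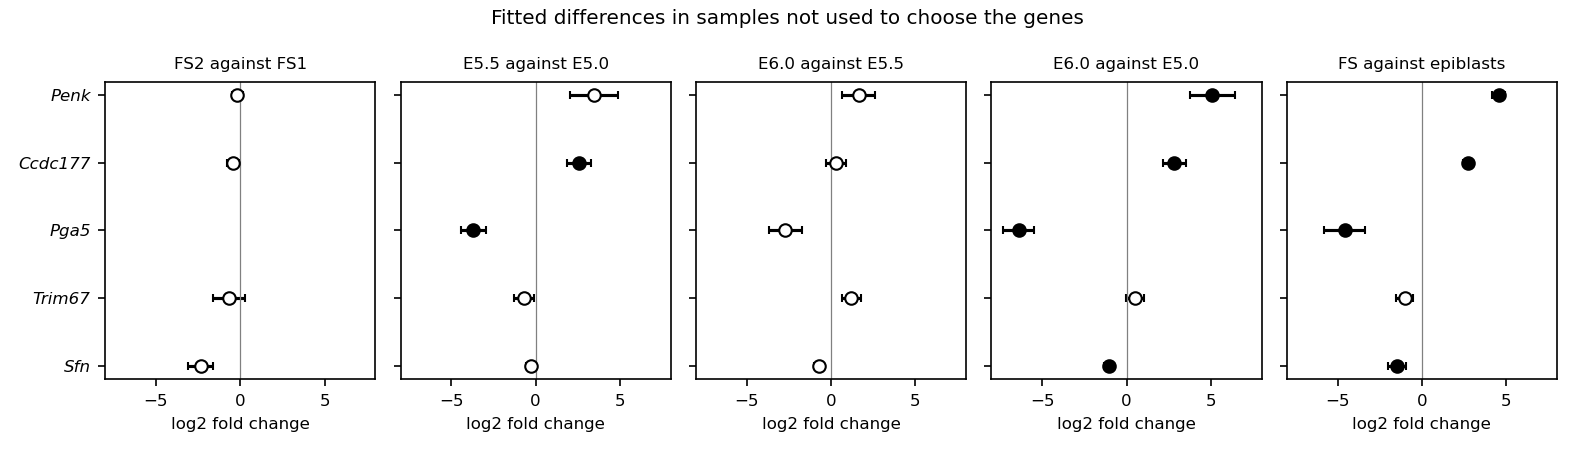
Fitted log2 fold changes, with bars of 1 standard error, of all the genes but Tbx2 in the comparisons they were not chosen on, leaving out Pga5 between the FS lines, where values against a group of 1 to 3 counts (Penk over E5.0, Pga5 against E6.0 or FS cells) depend on the fit's prior count; filled marks passed an edgeR adjusted p under 0.05. Pga5 is lower and Ccdc177 higher at E5.5 and E6.0 than at E5.0, and no mark is filled between the FS lines or between E6.0 and E5.5.

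Across all 7 groups the order of mean levels differed from gene to gene. Penk ran from AF through FS1, FS2, E6.0, E5.5 and AFX to E5.0, and only AF against FS1 and FS2 against E6.0 were neighbours whose samples did not overlap. Pga5 ran from AF through E5.0, E5.5, AFX, E6.0 and FS1 to FS2, with a gap between E5.0 and E5.5 alone. Ccdc177 had gaps after FS2 and after E5.5 in the order FS1, AFX, FS2, E6.0, E5.5, E5.0 and AF. Sfn had gaps below AF and below E5.5 in the order AF, E5.0, E5.5, E6.0, FS1, FS2 and AFX. For Trim67 and Tbx2 the one gap was below AF, and all other neighbours overlapped.

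Relatives and pathway partners of the 6 genes are counted beside the 8.73% of all genes called between the media. Of 8 further opioid system genes tested, edgeR called 1 higher and 2 lower in AFX than in AF, with a median log2 difference of 0.19 against 0.01 over all genes. The 3 concerned the same peptide family or its processing. Pcsk1, a prohormone convertase, was at 2.1, 1.76 and 3.15 CPM in AF and 0, 0 and 0.166 CPM in AFX. Pcsk2, the other neuroendocrine convertase, was higher in AFX, at 3.56, 5.75 and 6.40 CPM against 1.60, 0.528 and 0.928 CPM (log2 difference 2.38 ± 0.43, SE, edgeR adjusted p = 0.004). Pdyn, the dynorphin precursor, fell by 2.83 ± 0.75 on the log2 scale (edgeR adjusted p = 0.0294). Cpe, carboxypeptidase E, was at 13.1 CPM on average in AF and 12.2 in AFX (-0.12 ± 0.23, edgeR adjusted p = 0.845).

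Cpe and Pcsk2 also rose in the epiblast. Cpe went from 0.248, 0.392 and 0.720 CPM at E5.0 to 6.66, 6.76 and 4.75 CPM at E5.5 and 14.2, 15.5 and 15.9 CPM at E6.0, with no overlap between stages. Its log2 difference between E6.0 and E5.0 was 4.98 ± 0.44 (SE, edgeR adjusted p = 5.92e-06), and that of Pcsk2 was 2.48 ± 0.79 (edgeR adjusted p = 0.0374). They were the 2 of 7 opioid system genes called in that comparison beside Penk, both higher, where 21.8% of all genes were called and 10.2% higher. The 7 split into 4 with a positive and 3 with a negative difference, with a list median of 1.04 against -0.02 over all genes.

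The 6 other 14-3-3 genes, from Ywhab to Ywhaz, had a median log2 difference of -0.01 between AFX and AF. edgeR and DESeq2 called none of them, and 1 had an unadjusted p under 0.05 by edgeR. Of 11 p53 targets, Sesn2 and Zmat3 were called higher in AFX and Perp, which encodes an epithelial junction protein, lower by -1.04 ± 0.24 (SE, edgeR adjusted p = 0.015), with a list median of 0.25. Between E5.5 and E5.0, 2 of these 6, Ywhah and Ywhaq, were called lower by edgeR and 2 genes by DESeq2, beside 6.82% of all genes. Between E6.0 and E5.0, where 21.8% of all genes were called, neither tool called any, and 3 had an unadjusted p under 0.05 by edgeR. In FS cells against epiblasts 3 of the 6 were called lower by edgeR, beside 24.9% of all genes.

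Of 3 other aspartic proteases tested between the media, Ctsd, Bace1 and Napsa, edgeR called none. Napsa had an unadjusted p under 0.05 and was called by DESeq2 (AF 0.0704, AFX 1.09 CPM on average, edgeR adjusted p = 0.0514). At E5.5 Ctsd, the lysosomal cathepsin D, was lower than at E5.0 by -0.76 ± 0.20 (SE, edgeR adjusted p = 0.0375) and Bace1 higher by 1.36 ± 0.28 (edgeR adjusted p = 0.013). The other gastric zymogens, Pgc and Cym, were at or near 0 in AF and AFX.

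Of 4 other class I tripartite motif genes edgeR called none between the media, 3 had an unadjusted p under 0.05, and DESeq2 called 2. Trim9, the closest relative of Trim67, averaged 0.419 CPM in AF and 0.595 in AFX and was not tested. In the netrin pathway 1 of 8 genes was called, the receptor gene Unc5b, which was lower in AFX by -0.77 ± 0.20 (SE, edgeR adjusted p = 0.0276). Dcc, whose product Trim67 is known to bind, had 1.54, 0.125 and 9.31 CPM in AFX and 0, 0 and 0.0928 CPM in AF, and did not pass the filter. The AFX sample with the highest Dcc, passage 16, was also the one with the highest Trim67. Of 7 other T-box genes 1, Mga, was called, higher in AFX by 0.37 ± 0.10 (SE, edgeR adjusted p = 0.0327).

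Cell type marker lists are also counted beside the 8.73% of all genes called between the media, 4.30% higher and 4.42% lower in AFX. Of 12 simple epithelium genes tested, all had a negative log2 difference, AFX minus AF, and edgeR called 6 lower, among them Krt18, Cldn4, Cldn6, Cldn7 and Esrp1 (median -2.06). Their summed level over 13 genes was 963, 1937 and 1238 CPM in AF and 482 to 612 CPM in AFX, and passage 15 in AF had the highest sum and the highest Pga5. Between the FS lines, 3 of 12 simple epithelium genes, Cldn6, Cldn7 and Dsp, were called lower in FS2, beside 1.20% of all genes; the other 9 were not called, 2 of them with a higher level in FS2 (list median -1.43). Cldn7 was at 9.63, 13.9 and 4.40 CPM in FS1 and 1.69, 1.27 and 1.31 CPM in FS2, with no overlap. The simple epithelium list summed to 1350 to 1576 CPM in epiblasts, so it does not mark other cells alone. The part of epithelial traits or cells in the level of Sfn, an epithelial gene, was not tested.

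Of 8 feeder fibroblast genes tested, edgeR called 6 lower in AFX and 1, Thy1, higher, with a list median of -2.67. Fbln1 was higher in AFX without a call (42.6 CPM on average in AF and 61.3 in AFX). The summed level over 9 genes was 270 to 306 CPM in AF, 81.9 to 129 CPM in AFX and 38.3 to 77.1 CPM in FS cells. Visceral endoderm genes summed to 51.8 to 79.1 CPM in AF and 3.75 to 15.5 CPM in AFX, with Gata4, Gata6 and Sox17 called lower in AFX by edgeR of 4 tested, and 1 gene called by DESeq2. Primitive streak genes summed to 399 to 966 CPM in AF and 93.9 to 250 CPM in AFX, and 1 of 12 was called, lower. Of 9 neural genes edgeR called 4, all higher in AFX (median 1.73), and DESeq2 7. In AFX, passage 16 had the highest streak and visceral endoderm sums, as it had for Trim67 and Pga5. Of 3 extraembryonic ectoderm genes 2, Tfap2c and Gata3, were called lower in AFX, and of 8 pluripotent epiblast genes 1, Sox2, higher. With 1 call each, the pluripotent epiblast and primitive streak lists were near the 8.73% of all genes called. edgeR and DESeq2 called none of 8 WNT targets, of which 1 had an unadjusted p under 0.05 by edgeR, and none of 2 surface ectoderm genes, of which none had. The part of such cells in the levels of the 6 genes was not tested.

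**Figure D4:**
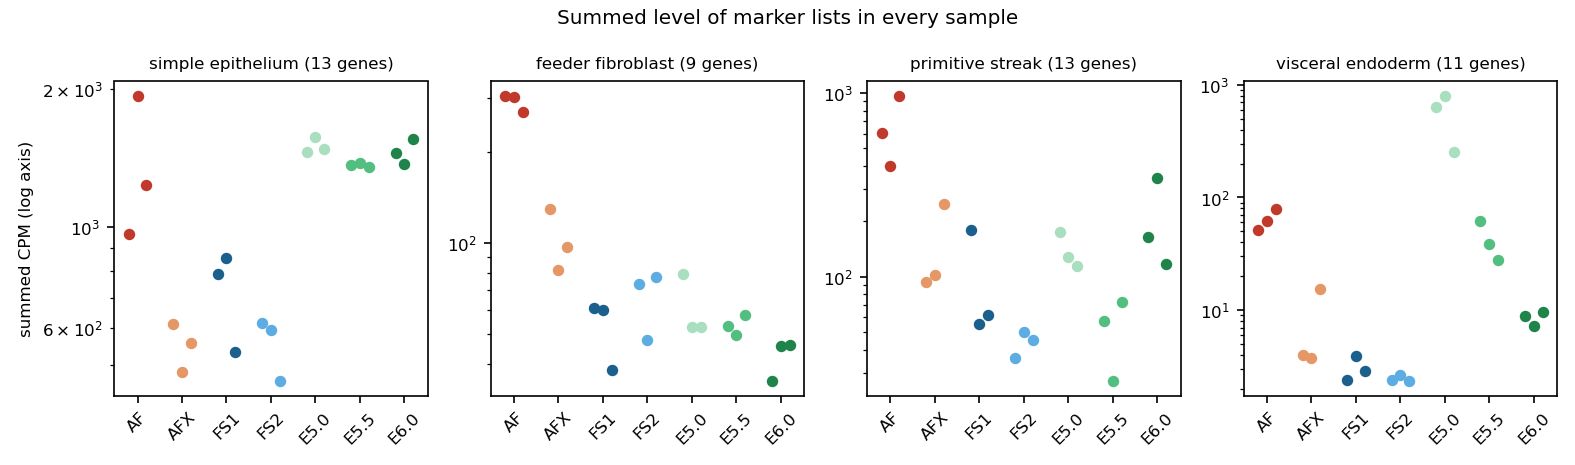
Summed CPM of 4 marker lists in every sample on a log axis, by group; points are samples. AF lies above AFX for each of the lists, and visceral endoderm falls from 252 to 800 CPM at E5.0 to 7.27 to 9.68 CPM at E6.0.

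Genes whose log2 CPM followed each of the 6 most closely over the 21 samples, out of 13642 genes, were ranked by Pearson's r. For Penk they were Hsf4 (r = 0.909), Sec23a (0.861) and Vps4a (0.860). For Pga5 they were Itpr3 (0.928), Amot (0.913) and Prss12 (0.910), and for Ccdc177 Celsr2 (0.938), Ccp110 (0.910) and Skida1 (0.898). Trim67 was followed most closely by Agpat3 (0.925), Fmod (0.923) and Tmem63a (0.910). For Sfn they were Dsg2 (0.907), Glis2 (0.890) and Llgl2 (0.855). Tbx2 shared Fmod (0.926) with Trim67, beside Hoxd9 (0.926) and Anxa1 (0.921). These values describe 21 samples that share groups and depth and include the AF and AFX samples the genes were chosen on. With the group means removed, r was lower for each of the 18 pairs, from -0.08 (Penk and Vps4a) to 0.736 (Pga5 and Itpr3), and for Tbx2, which is near 0 outside AF, it was 0.159 with Fmod, 0.333 with Hoxd9 and 0.602 with Anxa1. Ranked by Spearman's rho, 1 of the 3 genes stayed among the first 3 for Ccdc177, Trim67 and Sfn, and none for Penk, Pga5 and Tbx2.

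Among the 6 genes themselves, the tightest relation over the 15 samples that were neither AF nor AFX was an inverse one, between Pga5 and Ccdc177 (r = -0.885). Differences between groups enter that value, and Pga5 had 2 counts in FS cells and 3 at E6.0. Over the 21 samples r was -0.912, but these include the AF and AFX samples on which the genes were chosen in opposite directions, so nothing is read from its sign. Penk and Ccdc177 had r = -0.09 over all samples but 0.868 over those 15, in which both were high in FS cells and lowest at E5.0.

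Of 75 genes that start within 250000 bases of one of the 6, 43 were tested and 5 called (11.6%, beside 8.73% of all genes). Galnt16 near Ccdc177 was higher in AFX, at 20.8 against 3.34 CPM on average. A830012C17Rik near Penk, Vps37c near Pga5, Plekhd1 near Ccdc177 and Kdf1 near Sfn were lower. No tested neighbour of Trim67 (10) or Tbx2 (1) was called by edgeR.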

How the data were processed

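Total RNA of 12 cultured samples and 9 epiblasts was extracted with the PicoPure kit, per the labels' protocols. The authors deposited 1 table of raw counts per gene, whole numbers not normalized, with Ensembl identifiers and symbols. Trim Galore, TopHat2 2.1.0, featureCounts 1.5.0 and build mm10 are named in the submitters' processing notes; the strand setting of counting is not given in the sources used here. Positions were taken from GENCODE M21 (GRCm38) by identifier.

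Samples were grouped by title. In R 4.3.3, counts were tested with edgeR 4.0.16 (filterByExpr, TMM, robust quasi-likelihood fits, two-sided tests, Benjamini-Hochberg over all genes, threshold 0.05). The media were compared in a fit of the 12 cultured samples that pooled the FS lines. The FS lines were compared in another fit of those samples, with each line as its own group. The 8.73% of genes called between the media comes from the pooled fit, with 1401 genes. Keeping the lines apart called 1859. Stages were compared in a fit of the 9 epiblasts, and FS cells with epiblasts in a fit of all 21 samples. Depth was 5827093 to 15916800 counts per sample, and the 21 replicate pairs differed by more than sampling noise (chi-square per degree of freedom 4.84 to 29.0), so none was merged. Intervals (95%) and the floor of 3 counts cover counting error only. Log2 CPM used a prior count of 2. The steps were tested on simulated data. Figures used matplotlib 3.10.9.

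The 6 genes and the 16 gene lists (155 genes) were chosen with earlier results of these data known. Named genes are the 6, examples from those lists, for each of the 6 the 3 genes with the highest Pearson correlation (unnamed gene models left out), and genes starting within 250000 bases. Alternatives were size factors and the Wald test of DESeq2 1.42.0, testing every gene with a count, testing only genes that average 5 CPM or more, fewer or split groups, each sample left out, a replicate block and, added after seeing the data, leaving out the 5 most abundant loci.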

Additional observations from a re-analysis of the deposited data

How the results depend on the processing

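Of 326 alternative values for 5 of the 6 genes (none was run for Tbx2) in the comparisons they were not chosen on, 305 kept their direction and side of the threshold, 16 lost the call, 3 gained it and 2 changed sign. The sign changes were Penk (0.21) and Trim67 (0.0061) between the FS lines without FS1 passage 11; with 1 sample left out their ranges were -0.50 to 0.21 and -1.35 to 0.0061. Beside those under the replicate block below, the lost calls not yet given with their adjusted p were Sfn in FS cells against epiblasts with no filter (-1.45, adjusted p = 0.06) and without FS1 passage 18 (adjusted p = 0.058), FS2 passage 12 (0.0541) or E5.5 embryo 3 (0.0514), by edgeR. Sfn between the FS lines gained a call with no filter (-2.33, adjusted p = 3.89e-14 by edgeR). The difference was nearly that of the main fit (-2.34, edgeR adjusted p = 0.129) and the lines overlapped. The change thus lies in the fitted spread and is not read as stronger evidence.

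The number of genes called by edgeR depended on the setting. For AFX against AF it was 1401, with 1963 by DESeq2, 1859 with the FS lines as separate groups and 732 to 1129 with 1 sample left out. For FS2 against FS1 it was 618, with 1099 by DESeq2, 1298 with no filter, 1051 with the 2 lines alone and 316 to 478 with 1 sample left out. For E5.5 against E5.0 it was 971, with 1590 by DESeq2, 1659 with no filter and 371 to 1259 with 1 sample left out. For E6.0 against E5.5 it was 631, with 1075 by DESeq2, 1107 with no filter and 238 to 372 with 1 sample left out. For E6.0 against E5.0 it was 3100, and 1904 to 3363 with 1 sample left out. For FS cells against epiblasts it was 9470, and 8783 to 9887 with 1 sample left out.

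Between samples with the same number, the correlation of deviations was -0.12, -0.09 and 0.20 for the 3 passages of AF and AFX and -0.05 to 0.10 for embryos. Pairs of AF and AFX with unlike numbers ran from -0.26 to 0.30. With so few samples per group, a shared effect of passage could not be told from none. With a replicate block, edgeR called 900 genes for AFX against AF, 421 for E5.5 against E5.0, 707 for E6.0 against E5.5 and 2251 for E6.0 against E5.0. Under the block Penk (adjusted p = 0.0542 by edgeR) and Sfn (-1.04, adjusted p = 0.0779) missed the threshold in E6.0 against E5.0.

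Depth limits Tbx2 outside AF, Pga5 in FS cells and at E6.0, and Penk at E5.0, each at or near the floor.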
